A study of Mus musculus with 4 samples.

Results

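The 10 genes Slc7a5, Slc3a2, Slc7a11, Slc7a1, Slc7a3, Slc1a4, Slc1a5, Slc6a9, Slc38a2 and Slc43a1 encode transporters that carry amino acids across the plasma membrane. They were taken by gene symbol from a list chosen by their transport role and with earlier results of these data known, in which measured levels of several of them were lower after refeeding, and are 10 of the 23235 symbols measured. Their levels after refeeding are therefore given as a description with no test, and of their differences only that between genotypes was tested. Genes outside the 10 were tested for both. RNA was sequenced from pancreatic islets of C57BL/6 mice, either wild type (WT) or KR mutant. KR stands for a knock-in allele, known from the study, that puts arginine in place of the lysines at which FoxO1, a transcription factor, is acetylated. Each genotype was studied fasted and refed, with 1 library in each of the 4 groups, made from the combined islets of 3 mice per genotype. The titles give a fast of 48 h, and 6 h of refeeding after it in the refed groups, whereas the extraction protocol gives a fast of 24 h. Age and sex of the mice are not stated in the labels.

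Amino acid transporters fall into families that differ in what they carry and what drives them. Exchangers of the Slc7 family pair a light chain that carries the substrate with the heavy chain encoded by Slc3a2, which brings the pair to the cell surface, whereas the cationic Slc7 transporters work alone and bring in arginine and lysine. Slc1, Slc6 and Slc38 transporters use the sodium gradient. When amino acids are scarce or the endoplasmic reticulum is stressed, kinases that phosphorylate the initiation factor eIF2 raise translation of the transcription factor ATF4, and several of these transporter genes are known ATF4 targets. In beta cells, arginine, leucine and glutamine are known to modulate insulin secretion.

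The labelled tissue was checked first. Iapp, which encodes the beta-cell peptide amylin, had the lowest FPKM (fragments relative to the length of the transcript and the size of the library) in fasted WT, at 35463, and the highest in refed KR, at 66975. Of 8 tested beta-cell markers 5 rose and 0 fell after refeeding (limma, described with the genotypes), beside 27.7% of all tested genes that rose and 29.2% that fell. The 5 alpha-cell markers summed to 21941 to 27010. The 11 acinar markers with a value in every library summed in WT to 38.3 fasted and 54.8 refed and in KR to 44.7 fasted and 66.5 refed, with Ptf1a and Rbpjl at 0. Most of this sum was Cela1, at 35.0 and 47.3 in WT and 39.7 and 57.4 in KR. The 8 endothelial markers summed in WT to 31.4 fasted and 21.3 refed and in KR to 23.1 and 18.7, and 4 of the 6 tested fell and 1 rose after refeeding. The 7 stellate and fibroblast markers summed in WT to 35.1 fasted and 22.5 refed and in KR to 37.0 and 29.1, and 5 of the 6 tested fell and 1 rose. The 5 macrophage markers summed in WT to 216 and 179.8 and in KR to 192 and 153. The part of these cells in the transporter levels was not tested. Foxo1, the gene that carries the knock-in, stood in WT at 17.4 fasted and 18.8 refed and in KR at 14.1 and 13.8. These levels check nothing about the genotype labels because the change is in the protein. In bulk islets, fewer cells of a type and less RNA per cell cannot be told apart. The depth implied by the deposited bounds was 26415158 fragments fasted and 18103888 refed in WT, and 25718949 and 11079100 in KR, so both refed libraries were shallower.

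At least 2-fold lower after refeeding, on the log2(FPKM + 1) scale used throughout for ratios, were 5 of the 9 members with a mean FPKM of at least 1, in WT and again in KR: Slc1a4, Slc6a9, Slc7a5, Slc7a1 and Slc3a2. Among all 11953 genes that passed this filter, 2.4% were at least 2-fold lower in WT and 1.75% in KR. Slc38a2, Slc1a5, Slc7a3 and Slc7a11 were less than 2-fold lower in both genotypes. The bounds of the refed value lay wholly under those of the fasted value in 8 of the 9 members in each genotype, where this held for 30.9% of genes in WT and 29.0% in KR. The 10th member, Slc43a1, did not pass the filter. The median log2 ratio over the 9 members was -1.72 in WT and -1.42 in KR, beside 0.0042 and -0.02 over all tested genes. Because the members were listed with such values known, neither the count nor the median tells anything about these transporters as a class.

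**Figure D1:**
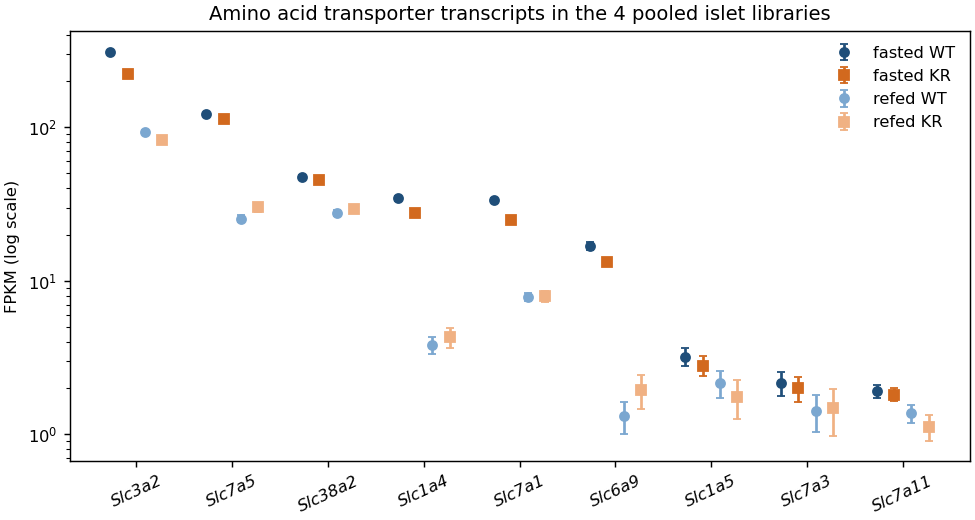
FPKM on a log axis for the 9 members with a mean FPKM of at least 1, in the 4 pooled libraries, ordered by the level in fasted WT. Points are 1 library each and bars are the bounds deposited with each value, and the 6 members at the left with over 10 FPKM in both fasted libraries all sit lower in both refed libraries.

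Slc3a2, the heavy chain (chromosome 19, 8781371 to 8797859, build mm9), was the most abundant member in every library. In WT islets it stood at 310.4 FPKM fasted, with deposited bounds of 306 to 315, and at 93.6 refed (90.7 to 96.6). In KR islets it stood at 224 fasted (219.8 to 227) and 83.1 refed (79.5 to 86.6). The fasted libraries lay far above the refed ones, and the bounds of KR and WT did not overlap in either feeding state. The level was 3.31-fold higher in fasted than refed WT and 2.69-fold higher in fasted than refed KR. These bounds cover counting and read assignment, not the spread between animals, since no group has a second library.

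Slc7a5, the light chain that with Slc3a2 forms the large neutral amino acid exchanger LAT1 (chromosome 8, 124405045 to 124431586), showed the same order of feeding states. WT islets held 122 FPKM fasted (bounds 119 to 124) and 25.4 refed (24.1 to 26.7), and KR islets 113 fasted (111 to 115) and 30.0 refed (28.2 to 31.9). It was 4.79-fold higher in fasted than refed islets in WT and 3.76-fold in KR. KR lay below WT in the fasted pair and above it in the refed pair, with bounds apart in both.

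Slc7a11, the light chain of the cystine and glutamate exchanger xCT (chromosome 3, 50168857 to 50247535), was low in all libraries. WT islets held 1.92 FPKM fasted (bounds 1.74 to 2.10) and 1.37 refed (1.19 to 1.56), and KR islets 1.81 fasted (1.64 to 1.99) and 1.11 refed (0.899 to 1.33). The fasted libraries were above the refed ones of the same genotype with no overlap of bounds, by 1.40-fold in WT and 1.63-fold in KR, and the genotypes overlapped in both feeding states.

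The balance of the light chains differed between the feeding states. The 6 light chains known to pair with Slc3a2 are Slc7a5, Slc7a6, Slc7a7, Slc7a8, Slc7a10 and Slc7a11, and their summed FPKM in WT was 195 fasted and 95.5 refed, and in KR 188 and 91.7. Slc7a5 made up 62.4% and 60.1% of that sum in the fasted WT and KR libraries and 26.6% and 32.8% in the refed ones. Slc7a8, the light chain of the neutral exchanger LAT2, which was named after its values were seen, stood at 59.3 fasted and 58.1 refed in WT and at 62.5 and 50.4 in KR, and went from 30.4% and 33.3% of the sum in fasted to 60.9% and 55.0% in refed WT and KR islets. Slc3a2 stood to the light-chain sum in a ratio of 1.59 fasted and 0.981 refed in WT, and of 1.19 and 0.906 in KR. The lead light chain differed between fasted and refed islets in both genotypes, which is a description with no test, since these genes were chosen with earlier results or their values known.

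**Figure D2:**
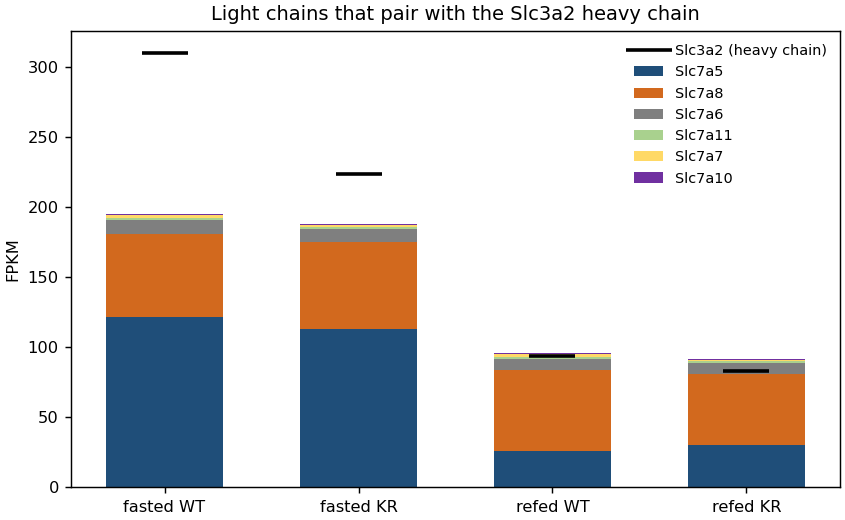
Summed FPKM of the 6 light chains that pair with the Slc3a2 heavy chain, as stacked bars from 0, 1 bar for each of the 4 libraries, with the FPKM of Slc3a2 as a black line. Slc7a5 leads in both fasted bars and Slc7a8 in both refed bars, and the Slc3a2 line is above the bar when fasted and near its top when refed.

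The cationic transporters differed from each other. Slc7a1, which encodes the widespread arginine and lysine transporter CAT1 (chromosome 5, 149138985 to 149211480), was measured in WT at 33.6 FPKM fasted (bounds 32.7 to 34.4) and 7.83 refed (7.33 to 8.34), and in KR at 24.9 fasted (24.1 to 25.6) and 7.97 refed (7.32 to 8.61). It was 4.29-fold higher in fasted than refed WT and 3.12-fold in KR, and the genotypes were apart in the fasted pair and overlapped in the refed pair. Slc7a3, which encodes the related CAT3 (chromosome X, 98274559 to 98280691), was measured in WT at 2.16 fasted (1.77 to 2.55) and 1.43 refed (1.04 to 1.81), and in KR at 2.00 fasted (1.62 to 2.37) and 1.48 refed (0.981 to 1.98). All bounds of Slc7a3 overlapped between feeding states and between genotypes, and refed KR rests on an implied 35.0 fragments. The interval of its refed to fasted log2 ratio was -0.67 to -0.09 in WT and -0.61 to 0.07 in KR, so that it excluded 0 in WT and not in KR.

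Among the sodium-coupled carriers of small neutral amino acids, Slc1a4, which encodes the alanine, serine and cysteine transporter ASCT1 (chromosome 11, 20202182 to 20232716), had one of the largest differences. WT islets held 34.5 FPKM fasted (bounds 33.3 to 35.7) and 3.80 refed (3.32 to 4.28), and KR islets 27.6 fasted (26.5 to 28.6) and 4.28 refed (3.63 to 4.93). The level was 9.09-fold higher in fasted than refed WT and 6.43-fold in KR. KR was lower than WT in the fasted pair, and the bounds overlapped in the refed pair.

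Slc1a5, which encodes the glutamine transporter ASCT2 of the same family (chromosome 7, 17366694 to 17383623), was far lower in fasted islets, at 3.21 in WT (bounds 2.77 to 3.65) and 2.81 in KR (2.40 to 3.21). Its refed values were 2.15 in WT (1.72 to 2.59) and 1.76 in KR (1.26 to 2.26), which lay below the fasted bounds of the same genotype. The difference was 1.49-fold in WT and 1.59-fold in KR, so the pair of related carriers Slc1a4 and Slc1a5 differed in how far their levels lay apart.

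Slc6a9, which encodes the glycine transporter GlyT1 (chromosome 4, 117507862 to 117541910), had the highest ratio of FPKM between feeding states in the list. WT islets held 16.9 FPKM fasted (bounds 16.0 to 17.8) and 1.32 refed (1.01 to 1.63), and KR islets 13.3 fasted (12.5 to 14.1) and 1.94 refed (1.46 to 2.42), where the refed values rest on an implied 72.0 and 65.0 fragments. Fasted islets were 12.8-fold above refed in WT and 6.86-fold in KR. The end of the Slc6a9 locus overlaps that of Ccdc24, whose FPKM lay between 2.58 and 2.93 in all libraries, and no source used here says how reads there were assigned.

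Slc38a2, which encodes the sodium-coupled transporter SNAT2 (chromosome 15, 96517822 to 96530129), was among the 3 most abundant members in every library. WT islets held 47.4 FPKM fasted (bounds 46.2 to 48.7) and 27.7 refed (26.5 to 28.9), and KR islets 45.6 fasted (44.3 to 46.8) and 29.5 refed (28.0 to 31.1). Fasted islets were 1.71-fold higher in WT and 1.54-fold in KR, and the genotypes overlapped within each feeding state. Slc43a1, which encodes the uniporter LAT3 (chromosome 2, 84679564 to 84703743), was at 0.0687 and 0.0679 in fasted WT and KR, where the lower bound was 0, and was listed at 0 in both refed libraries.

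In fasted islets the order of the levels was Slc3a2, Slc7a5, Slc38a2, Slc1a4, Slc7a1, Slc6a9, Slc1a5, Slc7a3, Slc7a11 and Slc43a1 in both genotypes. Neighbours whose bounds overlapped were Slc1a4 and Slc7a1 in WT only, and Slc7a3 and Slc7a11 in both. In refed islets Slc7a1 stood above Slc1a4 in both genotypes, and overlapping neighbours in both were Slc7a5 with Slc38a2, Slc1a5 with Slc7a3 and Slc7a3 with Slc7a11. Slc6a9 stood 9th in refed WT, overlapping Slc7a11, and 6th in refed KR, overlapping Slc1a5. Slc3a2 and Slc7a5 together made up 75.6% fasted and 72.3% refed of the summed FPKM of the 10 members in WT, and 74.0% and 70.2% in KR. That sum was 572 fasted and 165 refed in WT, and 455 and 161 in KR.

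**Figure D3:**
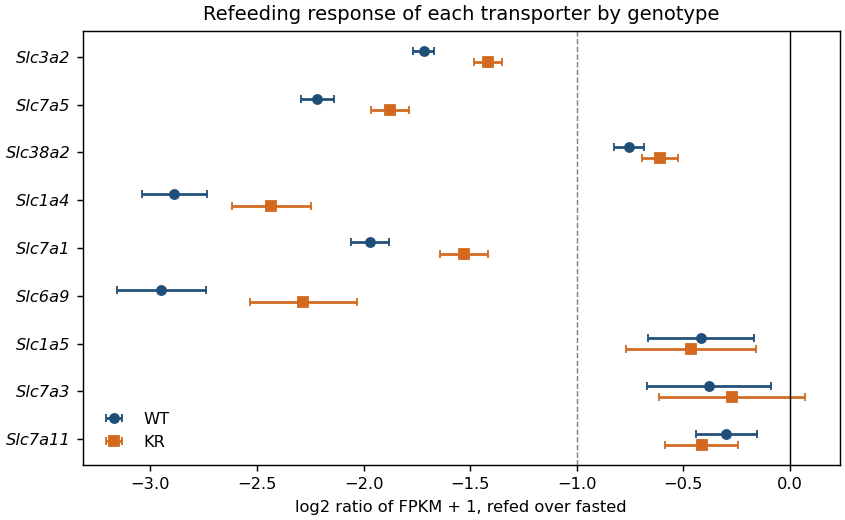
The log2 ratio of FPKM + 1 of refed over fasted islets for 9 members, circles for WT and squares for KR, with intervals from the deposited bounds and a dashed line at 2-fold lower. The ratios of Slc1a4, Slc6a9, Slc7a5, Slc7a1 and Slc3a2 lie left of the dashed line in both genotypes and each lies nearer to 0 in KR.

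Promoter sequences were examined because ATF4 with its C/EBP partners is known to bind the composite element TGATGNAA. RefSeq promoters of build GRCm38.p6 were matched for 7 of the 10 members, with 10 promoters in all, and Slc7a5, Slc7a3 and Slc1a5 had no entry. Shown are the 250 bases before the annotated start, 5′ to 3′ on the strand of the gene, of Slc7a11, the one member with the element in these bases, of Slc1a4, in which it spans the start, and of Slc3a2, which was at least 2-fold lower after refeeding and holds none. Capitals mark the bases of the element on either strand.
Slc7a11: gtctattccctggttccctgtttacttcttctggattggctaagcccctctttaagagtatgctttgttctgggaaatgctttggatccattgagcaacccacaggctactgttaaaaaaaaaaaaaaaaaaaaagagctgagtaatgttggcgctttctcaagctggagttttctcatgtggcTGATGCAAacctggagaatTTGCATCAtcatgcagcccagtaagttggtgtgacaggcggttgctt
Slc1a4: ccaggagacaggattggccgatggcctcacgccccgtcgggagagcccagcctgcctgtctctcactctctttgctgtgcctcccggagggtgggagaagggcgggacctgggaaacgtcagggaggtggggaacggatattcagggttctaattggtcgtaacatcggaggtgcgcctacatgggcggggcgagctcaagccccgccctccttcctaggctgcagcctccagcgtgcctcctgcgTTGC
Slc3a2: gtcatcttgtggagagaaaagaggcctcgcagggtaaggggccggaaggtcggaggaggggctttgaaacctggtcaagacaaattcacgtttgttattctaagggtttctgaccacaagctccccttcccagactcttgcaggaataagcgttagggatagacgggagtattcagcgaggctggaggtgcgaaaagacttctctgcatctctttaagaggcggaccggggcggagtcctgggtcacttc
The Slc7a11 window is chr3:50443614-50443863 on the minus strand, that of Slc1a4 chr11:20332714-20332963 and that of Slc3a2 chr19:8713898-8714147, both on the minus strand. In Slc7a11 the element occurs as TGATGCAA from 66 to 59 bases before the start and as its reverse complement TTGCATCA from 47 to 40 bases before it. In Slc1a4 the reverse complement TTGCATCA runs from 4 bases before the start to 4 bases after it, so the printed sequence ends with its first 4 bases. The element was found in 1 of the 10 promoters of members and in 3.45% of the 32851 promoters in the table. A match in letters is no evidence of binding.

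A search on both strands for the antioxidant response element core TGACNNNGC, which NRF2 binds, found it in 5 of the 10 promoters and in 10.2% of all, those of Slc38a2, Slc43a1 and Slc7a1 and 2 of Slc6a9. It begins 27 bases before the start in Slc38a2 and 11 in Slc7a1, and it was not found in the window of Slc7a11. The FoxO core GTAAACA occurred in Slc7a11 alone among the members, as TGTTTAC from 232 to 226 bases before the start, and in 3.17% of all promoters. These motifs could overlap one another in letters, and no such overlap occurred in the members.

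KR was compared with WT to see whether transporter levels differ when FoxO1 cannot be acetylated at these sites. No member passed the test between genotypes with limma over all genes, at a Benjamini-Hochberg adjusted p under 0.05 in a model of feeding state and genotype, in which 1.26% of tested genes passed. At an unadjusted p under 0.05 there was 1 of 9 members, Slc3a2, beside 1955 of 11953 genes. Slc3a2 was nearest to passing, with a fitted difference of KR minus WT of -0.32 ± 0.07 (SE, 4 libraries) on the log2 scale (limma adjusted p = 0.0892). With a filter of a mean FPKM of at least 5 its adjusted p was 0.0485, and over 6 alternatives it ran from 0.0485 to 0.43. The fitted difference of the other members ran from -0.20 ± 0.10 for Slc7a1 (limma adjusted p = 0.387) to 0.06 ± 0.08 for Slc7a5 (limma adjusted p = 0.766). The p-values rest on 1 residual degree of freedom per gene, joined to a prior from all genes. That residual holds the difference between the fasted and refed genotype ratios, not a spread between animals or between libraries of a group. A p that misses the threshold does not show that the genotypes are alike. On simulated data the same test missed most differences of about the size fitted for the members.

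The model holds 1 genotype difference for fasted and refed islets alike, so the pairs of libraries are also given singly. In fasted islets all 9 tested members had a ratio of KR to WT below 0 on the log2 scale, as did 59.7% of all tested genes. Deposited bounds did not overlap in 5 of them, all lower in KR, beside 15.5% of genes lower and 7.47% higher with bounds apart. These were Slc3a2, at -0.47 (interval -0.50 to -0.44), Slc7a1, at -0.42 (-0.47 to -0.36), Slc6a9, at -0.32 (-0.43 to -0.21), Slc1a4, at -0.31 (-0.39 to -0.24), and Slc7a5, at -0.11 (-0.15 to -0.07). None of the 9 differed by 2-fold, beside 0.243% of genes that did. The fasted values were part of the results known when the members were listed, so these counts tell nothing about the transporters as a class.

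In refed islets 3 of the 9, Slc3a2, Slc1a5 and Slc7a11, had a ratio below 0, beside 63.9% of all tested genes. Bounds were apart for Slc3a2, lower in KR at -0.17 (interval -0.25 to -0.09), and for Slc7a5, higher in KR at 0.23 (0.12 to 0.35). The background was 11.8% of genes lower and 3.51% higher with bounds apart. None of the 9 differed by 2-fold here either, beside 0.368% of genes that did. Below 0 when fasted and above it when refed were 6 of the 9 members, beside 17.0% of genes, and in 2 of the 6, Slc7a5 and Slc6a9, both intervals excluded 0, beside 2.02% of genes that were opposite in this way in either order. Counts of members here draw on values known when the members were listed and tell nothing about these transporters as a class. The refed KR library was the shallowest, with 0.418 of the depth of fasted WT, and its intervals are the widest.

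Markers of several cell types also differed between genotypes. Of 8 tested beta-cell markers 5 were higher in KR (limma, adjusted p under 0.05), by 1.34 on the log2 scale for Ins1, 0.69 for Slc2a2, 0.62 for G6pc2, 0.36 for Iapp and 0.30 for Ucn3, beside 1.26% of all tested genes that passed in either direction. In the fasted pair all 8 had bounds apart and higher in KR. The 8 beta-cell markers with a value in every library summed in WT to 40481 fasted and 57441 refed and in KR to 55112 and 80669, most of it Iapp. Ins2, left out of this sum for want of a value in fasted KR, was above it in each other library. It stood in WT at 122864 fasted and 121397 refed and in refed KR at 201043. Of 3 tested lymphocyte markers Cd79a and Cd52 were higher in KR, and the 5 listed summed in WT to 10.8 fasted and 10.8 refed and in KR to 22.8 and 16.3. Both tested adipocyte markers, Fabp4 and Lpl, were lower in KR, with Adipoq and Plin1 at 0. None of the 6 tested endothelial markers passed. In the fasted pair all 6 had a ratio of KR to WT below 0, with a median of -0.46 on the log2 scale, and 4 had bounds apart and lower in KR. The part of these cells in the transporter differences was not tested.

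**Figure D4:**
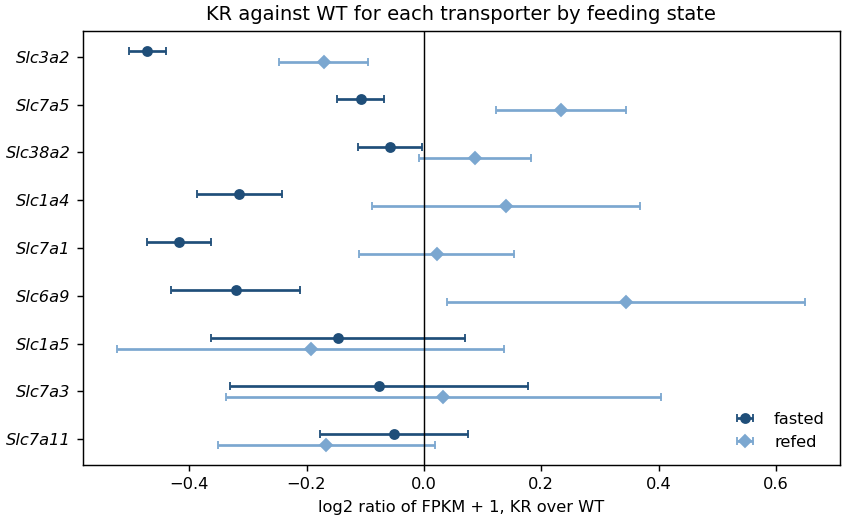
The log2 ratio of FPKM + 1 of KR over WT for 9 members, circles for the fasted and diamonds for the refed pair of libraries, with intervals from the deposited bounds. All 9 fasted points lie below 0, and 6 of the refed points lie above it. The members were listed with earlier results of these data known.

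The refeeding ratio of KR minus that of WT was above 0 for 7 of the 9 members, and as all 9 were lower when refed, a value above 0 means that the feeding states lay closer together in KR. Of the 5212 tested genes with a ratio below 0, of any size, in both genotypes 54.1% lay closer together in KR. Among all tested genes 2.4% were at least 2-fold lower after refeeding in WT and 1.75% in KR. Because the members were listed with lower refed levels known, the count of 7 tells nothing about these transporters as a class. The KR minus WT value is given singly with its interval, because how often such intervals exclude 0 over all tested genes was not counted. The difference was 0.67 (0.34 to 0.99) for Slc6a9, 0.45 (0.21 to 0.69) for Slc1a4, 0.44 (0.30 to 0.58) for Slc7a1, 0.34 (0.22 to 0.46) for Slc7a5, 0.30 (0.22 to 0.38) for Slc3a2 and 0.14 (0.04 to 0.25) for Slc38a2. For Slc7a3 it was 0.11 (-0.34 to 0.56), for Slc7a11 -0.11 (-0.34 to 0.11) and for Slc1a5 -0.05 (-0.44 to 0.35). Across the 5 members with the largest refeeding ratios, both a lower fasted and a similar or higher refed level in KR entered this difference, except in Slc3a2, which was lower in KR in both states. With 1 library in each group the difference could not be tested over replicates.

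Other amino acid transporters of the plasma membrane, a list of 32 genes with no member in it, gave 13 genes that averaged at least 1 FPKM. The 19 that did not reach it include the glutamate carriers Slc1a1, Slc1a2 and Slc1a3 and the glutamine carriers Slc38a1 and Slc38a3, and all 19 were at 0.666 or less in every library. Of the 13, 2 fell after refeeding, 2 rose and 9 did not pass (limma, adjusted p under 0.05), beside 29.2% of all tested genes that fell and 27.7% that rose. The 13 genes had a median log2 ratio of 0.01 for WT and -0.14 for KR, and 0 of the 13 were at least 2-fold lower in either genotype. The members had been set apart with lower refed levels known, and this list was chosen with earlier results known too. The contrast between them therefore tells nothing about either as a class. No gene of the list passed between genotypes.

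Slc38a4, a carrier of neutral amino acids of the same family as Slc38a2, had the highest mean FPKM of the 13, though Slc6a6 stood above it in fasted KR. It rose with refeeding, from 75.7 FPKM in WT to 113.7 and from 72.7 in KR to 110.3, by 0.59 ± 0.06 on the log2 scale (limma adjusted p = 6.44e-05). The other that rose was Slc43a2, which encodes the uniporter LAT4 related to LAT3 and was named after its value was seen, whose level in WT was 28.9 fasted and 49.0 refed and in KR 33.7 and 49.8 (0.65 ± 0.07, limma adjusted p = 0.000109). Slc6a6, the taurine transporter, fell from 71.0 to 48.5 and from 75.1 to 57.1, by 0.47 on the log2 scale (limma adjusted p = 0.000386). Slc16a10, the aromatic amino acid transporter, also named after its value was seen, fell by 0.18 (limma adjusted p = 0.0334). Slc7a2, a cationic transporter related to Slc7a1, stood in WT at 61.5 fasted and 62.1 refed and in KR at 71.9 and 67.7 and did not pass (limma adjusted p = 0.639). After refeeding, Slc7a2 stood well above Slc7a1 in both genotypes, and in fasted islets it was above it by less.

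**Figure D5:**
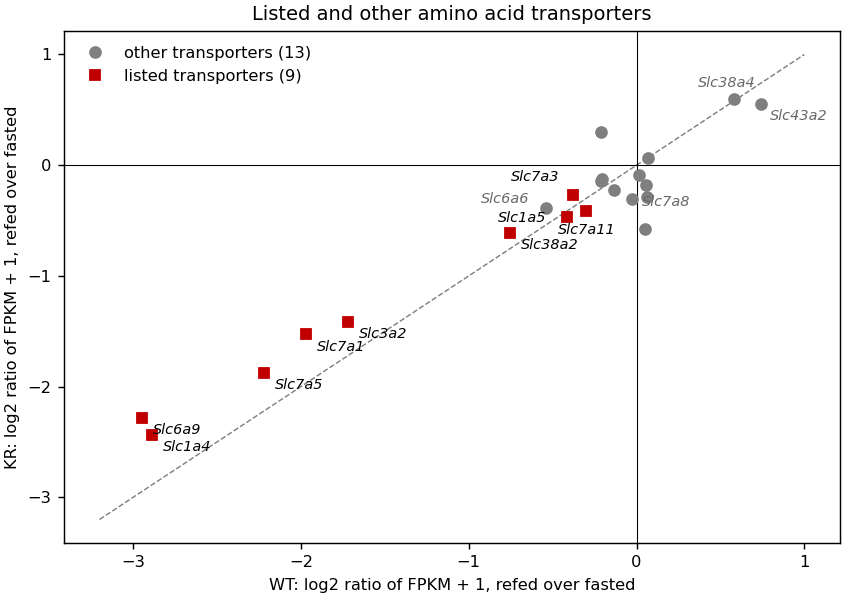
The refed over fasted log2 ratio of FPKM + 1 in KR against that in WT for 9 listed members (squares) and 13 other plasma membrane amino acid transporters (circles), with a dashed line where both genotypes would be equal. Slc1a4, Slc6a9, Slc7a5, Slc7a1 and Slc3a2 lie apart at the lower left and above the line, and Slc38a4 and Slc43a2 lie at the upper right. The members were listed with lower refed levels of several of them known.

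In the fasted pair 8 of these 13 other transporters had bounds apart between genotypes and higher in KR, and 0 lower, beside the 7.47% and 15.5% of all tested genes given above, whereas the listed members with bounds apart were all lower in KR. As both lists were chosen with earlier results known, this contrast too tells nothing about either as a class. All 8 tested beta-cell markers and all 3 tested lymphocyte markers were likewise apart and higher in KR in this pair. Of 6 tested endothelial markers 4 were apart and lower in KR and 0 higher. Also apart and higher were 2 of 5 alpha-cell, 1 of 2 delta-cell and 1 of 6 tested stellate and fibroblast markers. Apart and lower were 2 of 4 tested duct markers, both tested adipocyte markers and Ppy, the marker of PP cells. Of 5 tested macrophage markers 1 was higher and 1 lower, and 0 of 2 tested acinar markers were apart. The part of these cells in the transporter ratios was not tested. The highest of these ratios was that of Slc38a5, a glutamine carrier named after its value was seen, whose FPKM was 3.02 in WT and 5.29 in KR when fasted (log2 ratio 0.64) and 3.17 and 3.23 when refed (log2 ratio 0.02). Its fitted difference did not pass (limma adjusted p = 0.308).

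Of 13 lysosomal and vesicular amino acid transporters 9 were tested, of which 5 fell after refeeding and 0 rose, beside 29.2% and 27.7% of all tested genes. Slc38a7, a lysosomal glutamine and asparagine exporter, fell by 1.24 on the log2 scale (limma adjusted p = 8.14e-06), with 35.9 FPKM fasted and 13.6 refed in WT and 28.4 and 12.3 in KR, and was the single one of the 9 at least 2-fold lower. Ctns, the cystine exporter of the lysosome, fell by 0.39 and Slc7a14 by 0.35 on the log2 scale (limma adjusted p = 0.00124 and 0.00125). Of 19 regulators of the amino acid and stress response 14 fell, 4 rose and 1 did not pass, against the same background. Both lists were chosen with earlier results of these data known, so no count over either list, by feeding or by genotype, tells anything about its genes as a class. Atf4 was at 460.4 FPKM fasted and 153 refed in WT and at 438 and 163 in KR. In the fasted pair 10 of the 19 had bounds apart and lower in KR and 2 higher, beside 15.5% and 7.47% of genes. The log2 ratio of KR to WT in fasted and refed islets was -0.73 and -0.12 for the stress factor gene Atf3, -0.58 and -0.16 for Ddit3, which encodes CHOP, -0.61 and -0.03 for Ppp1r15a, which encodes a subunit of the eIF2 phosphatase, -0.07 and 0.09 for Atf4 and 0.14 and -0.09 for its relative Atf5. None of the 19 and none of the 9 lysosomal genes passed between genotypes, where the background is 1.26%.

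The profiles most like that of Slc7a5 over the 4 libraries were sought among 8444 genes that averaged at least 5 FPKM, unnamed and small RNA genes left out, by the root mean square difference of log2(FPKM + 1) after centring. They were those of the transcription factor gene Nfil3, at a difference of 0.05, the mitochondrial folate enzyme gene Mthfd2, at 0.08, Rasgef1b, at 0.09, Stard5, at 0.10, and Wdr67, at 0.14. Slc7a1 ranked 11th, at 0.20, and its partner Slc3a2 39th, at 0.31. The profiles most like that of Slc3a2 were those of Hmox1, which encodes heme oxygenase, at 0.03, Igfbp5, at 0.06, Cyp4f39, at 0.06, Bend7, at 0.06, and Yars, which encodes tyrosyl-tRNA synthetase, at 0.08, and Slc7a1 ranked 14th, at 0.11. With 4 libraries such likeness is a description of these profiles.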

How the data were processed

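Islet RNA was poly-A selected and prepared with an Illumina TruSeq kit, per the labels' protocols. The submitters' processing notes name bcl2fastq 1.8.4, TopHat2 2.0.4 and build mm9. The authors deposited FPKM per gene, with its bounds and a status, per the file headers. Which program and annotation made them is not given in the sources used here. Coordinates are as deposited, and a start may lie a base early.

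Rows of 1 symbol were summed and a status other than OK was treated as missing. Each member has 1 row, with the status OK in all libraries. Standard errors were the distance between the FPKM and its upper bound divided by 2, implied fragments were the squared ratio of FPKM to it, and intervals were 2 such errors on each side. These cover counting and assignment error only. Ratios use log2(FPKM + 1). Genotype was tested with limma 3.58.1 in R 4.3.3, two-sided, with a mean-variance trend and feeding state as a term, on the 11953 genes that had values in all libraries and averaged at least 1 FPKM. The 4 libraries leave 1 residual degree of freedom, joined to a prior of 7.58 from all genes, and the interaction counts as error. Tested on simulated data, the fit recovered large differences, missed most small ones and made more false calls than its threshold allows.

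Members and lists were chosen with earlier results of these data known. Named were all members, for each list its 3 most abundant genes and any gene called between genotypes or at least 2-fold apart in a pair, the 5 profiles most like Slc7a5 and Slc3a2, and 3 markers per cell type. A number of genes the rule names, mostly regulators and markers, are not described. Alternatives were the pseudocount, the filter, the trend, a robust prior and rescaling.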

Additional observations from a re-analysis of the deposited data

Results flagged for a closer look

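In Slc7a5 and in Slc6a9 the ratio of KR to WT lay below 0 in the fasted pair and above 0 in the refed pair, with an interval from the deposited bounds that excluded 0 each time. The refed ratio minus the fasted ratio was 0.34 for Slc7a5 and 0.67 for Slc6a9 on the log2 scale. Such opposite ratios occurred in 2.02% of all tested genes and in 2 of the 9 tested members. As the members were listed with earlier results of these data known, that count tells nothing about them as a class. The bounds themselves were apart in both pairs for Slc7a5, and for Slc6a9 they overlapped in the refed pair. The difference between feeding states was not tested over replicates, since each group has 1 library.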

How the results depend on the processing

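The count of genes called between genotypes, 151, was 0 without the filter on low values (1892 genes had an unadjusted limma p under 0.05 there), 5 with no trend, 228 with a robust prior and 252 with a filter of a mean FPKM of at least 5, and the causes were not tested. The count of members called, 0, became 1 with the filter of at least 5, through Slc3a2, and was 0 under the 5 other alternatives. The members at least 2-fold lower after refeeding numbered 5 in WT and 5 in KR with a pseudocount of 0.1 and after rescaling too. In the whole promoter window, including the bases after the start, TGATGNAA occurred in 3.97% of promoters, TGACNNNGC in 12.4% and GTAAACA in 3.65%. Among the 10 promoters of members the counts in that window were 2, 5 and 1, against 1, 5 and 1 in the bases before the start. With a pseudocount of 0.1 the refed to fasted log2 ratio of Slc6a9 was -3.58 in WT and -2.72 in KR, since it lies near 1 FPKM when refed. Leaving out a library leaves no residual degree of freedom, so that no such test was made. No paired analysis was possible because each group has 1 library with no replicate number, and the feeding state that the genotypes share is already a term of the test. Depth limits the low members most, Slc7a3, Slc1a5, Slc7a11 and Slc43a1.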
